A study of Mus musculus with 150 samples.

Results

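The 10 genes described here, Fos, Fosb, Jun, Junb, Jund, Egr1, Atf3, Arc, Ier2 and Nr4a1, are immediate early genes and genes that mark nerve injury. They were taken by name from the 54082 genes of the deposited table, and all 10 are in it. The study sequenced single somatosensory neurons of newborn CD1 mice with Smart-seq, 1 cell per sample, to compare neurons that innervate hairy skin with neurons that innervate glabrous (hairless) skin. Of the 150 cells, 45 carried the label hairy, 1 both skin types and the rest glabrous. All animals were CD1 mice from Charles River, untreated as far as the labels say, with no transgene named; 33 cells came from postnatal day 4 and the rest from day 5. The cells came from 10 litters, as the litter label gives them, and lay on 2 plates, with 85 glabrous and 10 hairy cells on plate 1 and 19 glabrous and 35 hairy cells on plate 2. The labels name litters and not animals, so the litter was the replicate, and skin type was compared inside litters. Litter K lay on both plates, and litters I and K each fell into 2 cDNA libraries. The sources used here do not give the animals' sex or say how a neuron was assigned to its skin type.

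Immediate early genes are switched on within minutes of a stimulus, without new protein synthesis, by kinase pathways that act on transcription factors already in the cell, among them CREB and SRF. In sensory neurons they respond to firing, to growth factors and to damage, and taking a ganglion apart for single-cell work itself severs axons. Their products are mostly transcription factors: Fos and Jun proteins pair to form AP-1, which then acts on later genes, while Arc acts at synapses.

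Total counts per cell ran from 395811 to 1053854 (median 734269.0), so that 1 count in the median cell equalled 1.36 CPM (counts per 1000000 of the cell's own total), the scale used for every per-cell level below. Cells had between 4360 and 15865 detected genes, with 6 cells under 10000 (5 glabrous and 1 hairy). Markers of sensory neurons were present throughout: Tubb3 and Snap25 lacked a count in 1 cell each and Isl1 in 5 of the 150. Transcripts of other cells were present as well. The summed level of 7 satellite glia markers, all of them detected, ran from 17.9 to 16577.5 CPM in glabrous and from 31.1 to 23149.6 CPM in hairy neurons. The 8 Schwann cell markers summed to a median of 1641.2 CPM in glabrous and 3363.1 CPM in hairy neurons, and 1 glabrous cell had 247738.1 CPM of haemoglobin and Alas2 transcripts. No 2 cells had identical counts.

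The Jun family made up the steady end of the list. Jun, the AP-1 partner that is also induced in axotomised neurons, had no count in 4 of 150 cells, with a median of 89.4 CPM and a highest value of 445.3 CPM. Jund, the family member that most tissues express without a stimulus, had no count in 1 cell, with a median of 56.1 CPM and a highest value of 220.9 CPM. Junb, which often opposes Jun at shared targets, had no count in 6 cells, with a median of 18.8 CPM and a highest value of 87.4 CPM. These 3 genes were thus present in nearly every neuron, and the 10% of cells with the highest values held only 28% of all Jun, 23.1% of all Jund and 25.1% of all Junb. Divided by the length of the annotated exons, the mean level was 39.7 CPM per kb for Jund, 32.9 for Jun and 9.91 for Junb, the 3 highest of the 10 genes. Junb (chr8:84974484-84978718, minus strand) shares 351 bases with Prdx2 on the other strand, counted between the annotated gene bounds. How many of them are exon bases in both genes was not computed. Prdx2 had 104048 counts over all cells against 2587 for Junb, and counting by strand is not stated, so reads of the shared bases could have gone to either gene. Over cells, Junb and Prdx2 had a Spearman's rho of 0.263 (n = 150 cells). Antisense genes overlap Jun (chr4:95049034-95052222) and Jund (chr8:70698949-70700616), with 150 and 43 counts against 11788 and 7374.

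The Fos side of AP-1 and Atf3 were sparse. Fos, the classic marker of recent firing, had no count in 38 cells; its median was 4.65 CPM and its highest value 66.3 CPM, and the top 10% of cells held 45.1% of all Fos. Fosb, its slower relative, had 44 counts in total and a count in 21 cells, with a highest value of 8.12 CPM. Atf3, a CREB/ATF family factor that sensory neurons switch on after axon injury, had a count in 41 cells; it reached 33.5 CPM, and 75.9% of it lay in the top 10% of cells. The injury marker was therefore near or at 0 in most neurons, while Jun was not. Per kb of exon the mean level was 3.9 CPM for Fos, 1.07 for Atf3 and 0.0607 for Fosb.

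The other 4 genes lay between these ends. Ier2, a nuclear regulator of transcription, had no count in 13 cells, with a median of 9.58 CPM and a highest value of 92.1 CPM. Nr4a1, an orphan nuclear receptor, had no count in 35 cells, with a median of 8.17 CPM and a highest value of 161.9 CPM. Arc, a synaptic protein that forms capsid-like particles, had a count in 91 cells, with a median of 2.48 CPM and a highest value of 55.9 CPM. Egr1, a zinc finger factor, had the most uneven spread of the 4: 70 cells had no count, the median was 1.34 CPM, and 1 glabrous neuron reached 254.4 CPM. That neuron, of litter I, also had the highest summed fibroblast markers of all cells, 18715.4 CPM, and 14755.1 CPM of Schwann cell markers; their part in its Egr1 level was not tested. The top 10% of cells held 71.4% of Egr1, 45.8% of Arc, 44.8% of Nr4a1 and 32.2% of Ier2. Mean levels per kb of exon were 7.6 CPM for Ier2, 5.4 for Nr4a1, 2.4 for Arc and 1.74 for Egr1. With 841 to 2069 counts per gene over 150 cells, a single cell's value of these 4 rests on few reads.

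**Figure D1:**
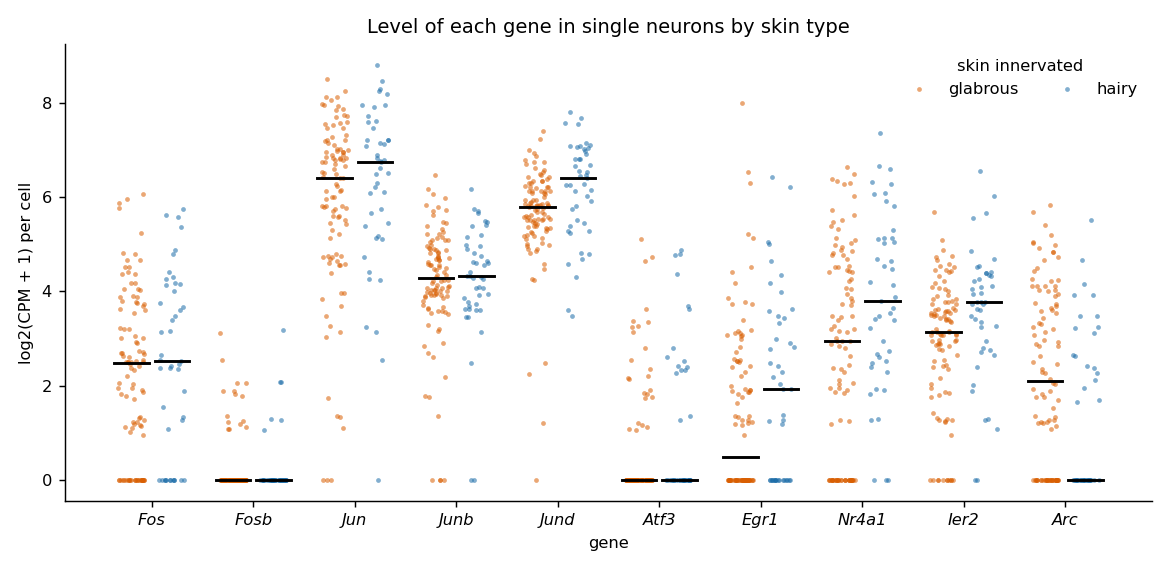
Level of each gene in every labelled neuron. Each point is 1 cell at log2(CPM + 1), coloured by skin type, and black bars are medians over cells. Jun, Jund and Junb form bands above 0 in nearly all cells, whereas Fosb and Atf3 lie at 0 in most of them and Arc has a median of 0 in hairy neurons.

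Joint levels were highest among 4 of the 10 genes. Over the 150 cells, 33 of the 45 pairs of genes had a positive Spearman's rho, with a median of 0.108. Among the 8 genes with a count in at least 75 cells the median of the 28 pairs was 0.0781, beside 0.0472 over all 87179410 pairs of the 13205 genes that met the same minimum. Of these 28 pairs, 7 lay above 0.283, the value that 5% of all gene pairs exceeded. The points share libraries and depth, so the values describe these cells only.

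Of those 7 pairs, 6 joined Fos, Egr1, Ier2 and Nr4a1 to one another, a set named here after its values were seen. The pair Ier2 and Nr4a1 had a rho of 0.435, Egr1 and Nr4a1 0.401, Fos and Ier2 0.392, Fos and Egr1 0.339, Fos and Nr4a1 0.324, and Egr1 and Ier2 0.319. The median of the 6 pairs was 0.366; it was 0.395 after the mean rank of each litter was subtracted and 0.278 after that of each cluster of cells. It was 0.345 among glabrous and 0.351 among hairy neurons, 0.357 on plate 1 and 0.397 on plate 2, and all 6 pairs stayed positive in each of these subsets. Markers of other cells moved with the same genes. The satellite glia markers had a rho of 0.737 with Nr4a1, 0.35 with Ier2, 0.308 with Egr1 and 0.217 with Fos. The fibroblast markers had 0.544, 0.285, 0.35 and 0.255 with these genes in the same order, and the Schwann cell markers 0.514, 0.185, 0.24 and 0.192. With the rank of the summed satellite glia markers removed from each gene, the 6 pairs lay between 0.237 and 0.346 (median 0.275). The median was 0.272 with the fibroblast rank removed, 0.32 with the Schwann cell rank removed and 0.247 with all 3 removed together, where the pairs lay between 0.216 and 0.335.

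The 12 pairs of Jun, Junb or Jund with a gene of that set lay lower, from -0.0351 for Jun and Egr1 to 0.244 for Jund and Ier2. Fos and Jun, which can form a single AP-1 dimer, had a rho of -0.0012, Fos and Junb 0.0231 and Fos and Jund 0.0608. Jund had 0.163 with Nr4a1 and 0.144 with Egr1, and Junb 0.178 with Ier2. Jun instead went with Arc (rho 0.307), the remaining pair above the value that 5% of gene pairs exceeded. Arc and Jund had the lowest value of all 45 pairs, -0.442, which was -0.34 after litter ranks and -0.148 after cluster ranks were subtracted. Atf3 was closest to Jund (0.306) and Ier2 (0.29), and its rho with Jun was -0.213.

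**Figure D2:**
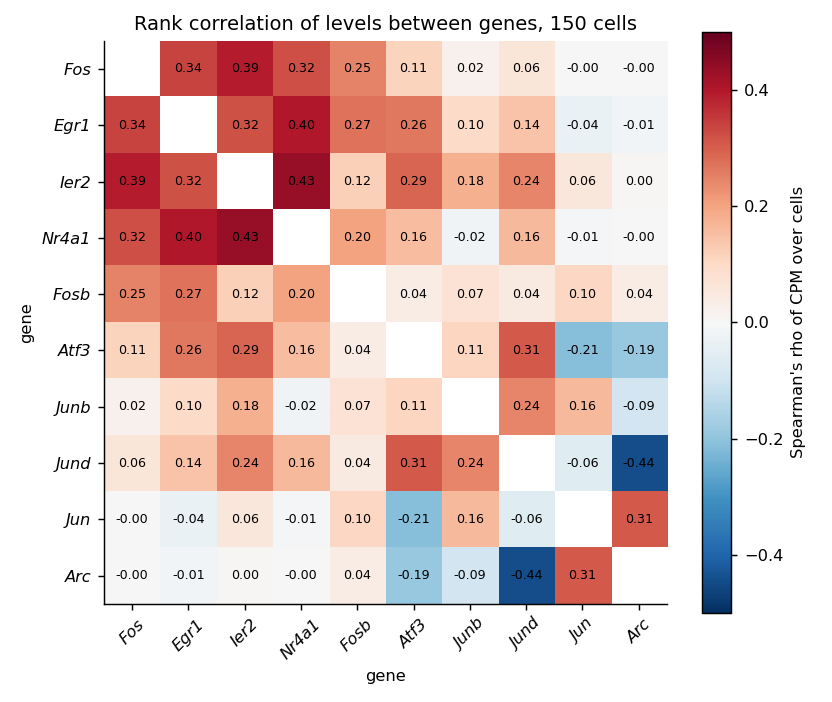
Spearman's rho of CPM between each pair of the 10 genes over 150 cells. Red is positive and blue negative; the block at the upper left holds Fos, Egr1, Ier2 and Nr4a1, with values from 0.319 to 0.435, and the cell for Jund and Arc holds -0.442.

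The cells were also counted by how many of the genes were high in them at once. Each gene's top 10% was 15 cells, so the cut itself keeps cells high in many genes few. How many such cells unrelated genes would give was not computed. Of the 150 cells, 67 were in no gene's top 10%, 44 in that of 1 gene, 20 in 2, 11 in 3, 7 in 4 and 1 in 5. That last cell, a hairy neuron of litter M, had 48.3 CPM of Fos, 85.3 of Egr1, 52.6 of Junb, 11.4 of Atf3 and 1.42 of Fosb, but 25.6 CPM of Jun and no Arc. Its summed fibroblast markers were 11030.0 CPM, the highest of any hairy neuron (median 431.0 CPM). In 2 cells Fos, Egr1, Ier2 and Nr4a1 were all in the top 10%: a hairy neuron of litter O with 52.9, 73.2, 63.8 and 161.9 CPM, and a glabrous neuron of litter E_F_G with 57.6, 20.3, 26 and 76.8 CPM. Both carried many Schwann cell transcripts, with summed marker levels of 42918.9 and 11148.7 CPM; the part of these transcripts in the 3 cells' values was not tested. At the level of mere detection, 59 cells had a count of all 4 genes and 4 cells had a count of all 10.

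Promoters are shown for Fos and Nr4a1, to set their CREB-type sites beside each other. Of the joint set, only these 2 genes were matched to the RefSeq promoter table (GRCm38.p6) as it was searched here. Genes left unmatched may still be held in the full table. In all, 7 of the 10 genes matched that table: Fos, Fosb, Jun, Junb, Jund, Atf3 and Nr4a1. Each sequence runs from 250 bases before to 50 bases after the start, 5′ to 3′ on the gene's strand, Fos at chr12:85473640-85473939 and Nr4a1 at chr15:101266596-101266895, both on the plus strand. Capitals mark the CRE half-site TGACG, read on either strand (CGTCA on the minus strand), and, in Fos, the TATA box TATAAA.
Fos: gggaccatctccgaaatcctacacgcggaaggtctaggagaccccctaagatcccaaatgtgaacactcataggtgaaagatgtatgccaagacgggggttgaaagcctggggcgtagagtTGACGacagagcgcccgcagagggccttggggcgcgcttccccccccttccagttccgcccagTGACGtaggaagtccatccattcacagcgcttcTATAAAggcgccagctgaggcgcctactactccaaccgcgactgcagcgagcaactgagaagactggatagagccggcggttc
Nr4a1: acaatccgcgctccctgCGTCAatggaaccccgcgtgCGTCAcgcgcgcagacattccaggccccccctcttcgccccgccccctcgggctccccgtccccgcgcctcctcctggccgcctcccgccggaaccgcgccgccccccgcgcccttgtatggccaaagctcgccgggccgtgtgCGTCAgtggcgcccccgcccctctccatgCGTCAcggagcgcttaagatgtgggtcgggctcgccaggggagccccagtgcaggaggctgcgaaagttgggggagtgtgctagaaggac

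The Fos window held the half-site 2 times, at -129 to -125 and at -66 to -62 from the start, and a TATA box at -33 to -28. The Nr4a1 window held it 4 times, at -233, -213, -69 and -40 (first bases), all on the minus strand, and no TATA box. Among the 32851 promoters searched, 20.8% held at least 1 half-site, 5.01% at least 2 and 0.231% at least 4, and 13.6% held TATAAA. G and C made up 58.7% of the Fos and 72.3% of the Nr4a1 window, beside a median of 52.7% over these promoters. The shares were not matched for this base composition. Fosb, Junb and Atf3 held 1 half-site each and Jun and Jund none. Windows follow the RefSeq start: that of Jund lies upstream of the GENCODE gene start given above, and those of Nr4a1 and Atf3 lie inside the GENCODE gene, so other starts of these genes were not searched. Junb also held TATAAA. The half-site and the TATA box were searched after 4 longer motifs, on both strands, had given no match in the 7 promoters: the full CRE TGACGTCA, which contains the half-site (1.79% of all promoters), the AP-1 site TGANTCA (7.81%), the EGR site GCGTGGGCG (0.612%) and the CArG box (1.63%). A match is a run of letters in this window, and binding was not measured.

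The levels differed between kinds of neuron. Cells were clustered on other genes, with the 10 genes and the related lists left out, and clusters were named only where markers allowed: 4 clusters were like A-fibre low-threshold mechanoreceptors (clusters 1, 6, 7 and 8, with 23, 13, 10 and 17 cells), 1 like C-fibre low-threshold mechanoreceptors (cluster 2, 20 cells), 1 like non-peptidergic nociceptors (cluster 3, 10 cells), 2 like peptidergic nociceptors (clusters 5 and 9, 25 and 13 cells), and cluster 4 (19 cells, led by Gm765, Ptgir and Trappc3l) stayed unnamed. None of the 10 leading genes of cluster 1 was in the A-fibre list and 1, Apoe, is a satellite glia marker. The summed satellite glia markers of cluster 1 had a median of 3284.9 CPM, below only cluster 7 (4327.3 CPM). Other names had contrary markers too. Th, on the C-fibre list, had a median of 3.93 CPM in cluster 2, below 9.96 CPM in cluster 3. Cluster 5 had medians of 1404.7 CPM for Nefh, on the A-fibre list, and 5.98 CPM for Tac1, on the peptidergic list. In cluster 9 these were 88.2 and 4724.3 CPM. Cluster 8 was also high in Pvalb, Runx3, Spp1 and Cdh13 of the proprioceptor list. Clusters accounted for 41.2% of the variance over cells of Nr4a1, 39.6% of Arc, 32% of Atf3, 28.1% of Jund, 26.9% of Egr1, 23.3% of Jun, 19.5% of Ier2 and 14.6% of Junb. For Fos the share was 9.92% and for Fosb 7.29%, beside a median of 9.75% and a 90th percentile of 30.3% over genes with a count in at least 75 cells. With the 10 genes and the lists kept in the clustering the share was 21.1% for Fos and 8.8% for Junb, and at a coarser resolution of 0.5 it was 12.2% for Egr1. These are descriptions of rebuilt clusters, with no test.

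Arc and Jund marked opposite ends. Arc had a median of 10.6 CPM in cluster 4, 8.17 in A-fibre-like cluster 8, 7.64 in A-fibre-like cluster 1 and 6.36 in peptidergic-like cluster 5. In peptidergic-like cluster 9, whose cells have Trpv1 among their leading genes, no Arc count was found in 13 of 13 cells, which allows a share of cells with a count of up to 24.7% (exact binomial 95% interval, for counting error only, since the cells came from 6 litters); 1 of 10 non-peptidergic-like cells, 5 of 20 C-fibre-like cells and 3 of 10 cells of A-fibre-like cluster 7 had a count. Jund was highest in the first 3 of these, with medians of 132.5 CPM in cluster 9, 99.7 in the non-peptidergic-like and 92.2 in the C-fibre-like cluster, beside 61.7 CPM in cluster 7 and 39.3 CPM in A-fibre-like cluster 1. Jun had its highest medians in cluster 4 (153.7 CPM), cluster 5 (135.7 CPM), cluster 1 (117.5 CPM) and cluster 9 (112.1 CPM), and its lowest in the non-peptidergic-like cluster (15.9 CPM). Junb was highest in the non-peptidergic-like cluster (35.8 CPM), where Jun was lowest, and in cluster 9 (33.2 CPM), against 11 CPM in A-fibre-like cluster 7.

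The C-fibre-like cluster had the highest medians of Nr4a1, Egr1 and Atf3 among the 9 clusters, at 36.3, 11.1 and 4.4 CPM. Its median of Ier2 was 17.6 CPM, beside 17.7 CPM in cluster 9. Atf3 had a count in 15 of its 20 cells, against 1 of 25 in peptidergic-like cluster 5. Fos had its highest median in A-fibre-like cluster 7 (12.8 CPM), followed by the C-fibre-like cluster (9.81 CPM) and cluster 9 (9.47 CPM), and 0 in the non-peptidergic-like cluster. The C-fibre-like cluster also had the highest medians of summed Schwann cell markers (6119.7 CPM), fibroblast markers (1170.7 CPM) and macrophage markers (19.4 CPM) of all clusters, and 15 of its 20 cells were hairy. The part of those cells' transcripts in the levels of Nr4a1, Egr1, Atf3 and Ier2 was not tested. In cluster 4, whose summed satellite glia markers had the lowest median (113.3 CPM), Nr4a1 had no count in 15 of 19 cells.

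**Figure D3:**
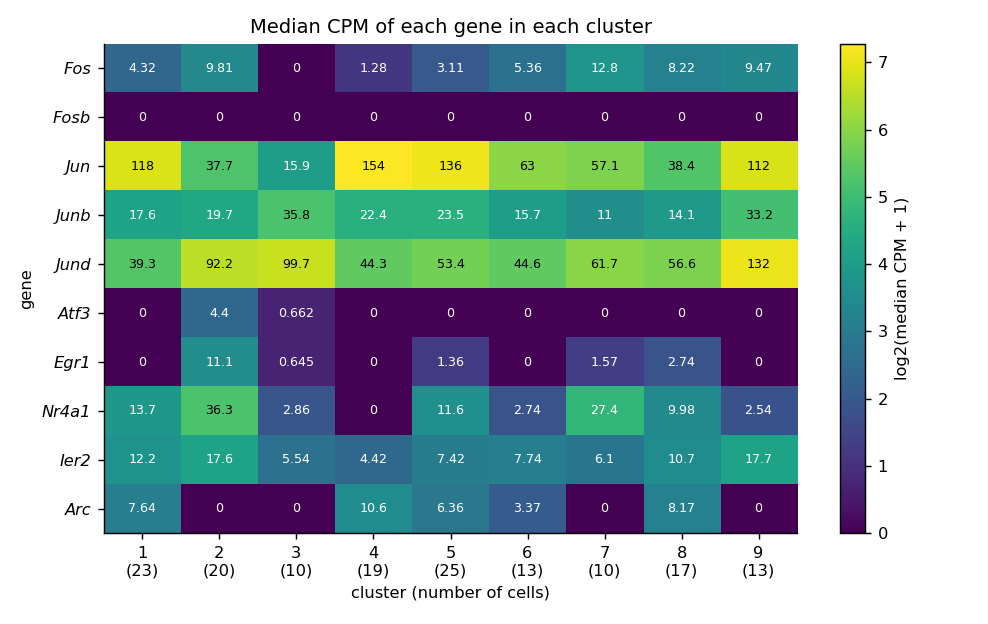
Median CPM of each gene in each of the 9 clusters, printed in each square and coloured as log2(median CPM + 1), with the number of cells below each cluster number. Nr4a1, Egr1 and Atf3 are highest in cluster 2, Arc in cluster 4 and Jund in cluster 9.

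Nr4a1 tracked the glial transcripts more closely than any other of the 10 genes. Its rho with the 7 summed satellite glia markers was 0.737 over 150 cells, 0.725 among glabrous and 0.736 among hairy neurons, 0.727 on plate 1 and 0.707 on plate 2. It was 0.722 after litter ranks and 0.578 after cluster ranks were subtracted, and 0.794 without the 6 cells of few detected genes. Of the single markers, Sparc gave 0.771, Ednrb 0.744 and Sox10 0.694, while Glul gave 0.0911. Within single clusters the value ran from 0.134 in A-fibre-like cluster 6 to 0.878 in cluster 9. The 3 genes whose level over cells was most like that of Nr4a1 were Plpp3 (rho 0.799), Mamdc2 (0.792) and Gpr37l1 (0.787), the last a receptor known from glia. The other 9 genes had a rho with the satellite glia markers between -0.137 (Arc) and 0.35 (Ier2). Whether the Nr4a1 counts of these libraries came from the neurons or from attached glia was not tested.

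**Figure D4:**
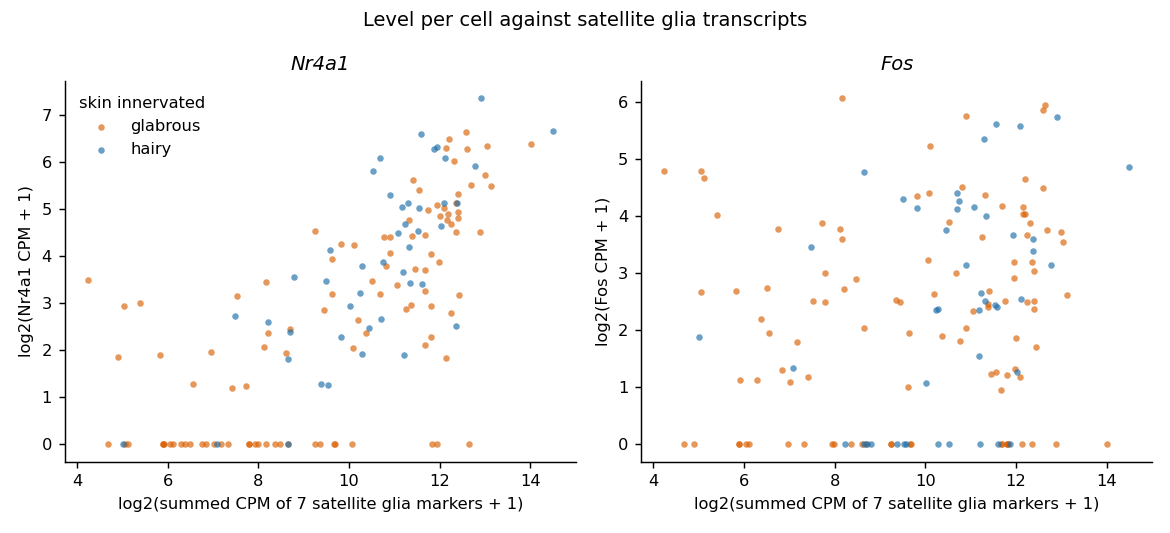
Nr4a1 (left) and Fos (right) in each labelled neuron against the summed level of 7 satellite glia markers, both axes as log2(CPM + 1), with points coloured by skin type. Nr4a1 climbs along the glial axis, with a rho of 0.737 over all 150 cells, and Fos does so far less, with a rho of 0.217.

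The same measure of likeness gave other neighbours for the other genes. Jun was most like Ncdn (rho 0.671), Trappc3l (0.649) and Rbfox3 (0.647), Jund like Csnk1e (0.692), Ptov1 (0.652) and Tprgl (0.639), and Arc like Ces2g (0.682), Tspyl4 (0.666) and Tspan13 (0.664). The nearest genes were less close for Junb (Bves, 0.505), Ier2 (Ctsk, 0.482), Egr1 (Tcn2, 0.467), Atf3 (Mpped2, 0.463) and Fos (Cyp2j6, 0.444), and for Fosb (Pcnt, 0.339), which had counts in few cells.

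Levels of some of the genes varied with the number of detected genes, the litter or the plate, and the cause was not tested. The rho with a cell's total count lay between -0.12 (Nr4a1) and 0.193 (Junb), with 0.174 for Arc. The rho with the number of detected genes was 0.397 for Arc and between -0.125 (Jund) and 0.221 (Fosb) for the others, with a median of 0.135 over all genes compared. Litters accounted for 16.4% of the variance over cells of Jund, 16.4% of Arc, 13.3% of Jun and 12.1% of Nr4a1, beside a median gene at 7.32% and a 90th percentile of 13%. Plates accounted for 7.36% of Arc, 6.84% of Jund and 4.17% of Nr4a1, and the 90th percentile over genes was 3.92%. Of the 15 cells in the top 10% for Arc, 14 lay on plate 1; of those for Jund, 11 lay on plate 2. Plate 2 held most of the hairy neurons.

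Over single cells, hairy neurons more often had a count of Nr4a1 (42 of 45 cells, 93.3%, against 72 glabrous cells, 69.2%) and less often of Arc (19 of 45, 42.2%, against 71 glabrous cells, 68.3%). After every cell was thinned to 395811 counts the shares were 88.9% against 65.4% for Nr4a1 and 35.6% against 61.5% for Arc. Nr4a1 had a count in 69.4% of glabrous and 90% of the 10 hairy cells on plate 1. On plate 2 its shares were 68.4% and 94.3%, so hairy cells had the higher share on each plate. Its summed level was lower in hairy cells in litters C_D, E_F_G and H of plate 1. On plate 2 it was lower in L and higher in O and P_Q. For Arc the shares were 70.6% of glabrous and 60% of hairy cells on plate 1, and 57.9% and 37.1% on plate 2, lower in hairy cells on each plate and lower on plate 2 in each skin type. Kinds of neuron were unevenly spread over the skin types. Clusters 4 and 8, with the highest Arc medians, held 18 and 17 glabrous cells and 0 hairy ones. Among clusters low in Arc, cluster 9 held 4 glabrous and 9 hairy cells and cluster 2 held 5 and 15. Clusters 3 and 7, also low in Arc, held 9 glabrous cells and 1 hairy cell each. The part of neuron type in the shares of Arc and Nr4a1 was not tested. Cells of 1 litter are not replicates, and no test was made on these shares.

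With the litter as replicate, none of the 8 genes that could be tested was called different between hairy and glabrous neurons. In the 7 litters with at least 2 cells of each kind, the cells' counts were added up by litter and skin type and tested with edgeR's quasi-likelihood F-test, with the litter as a block and p-values adjusted by Benjamini-Hochberg over 12852 genes. Of these genes 12 passed an adjusted p of 0.05, 0.0934% of those tested, and none of them was among the 8 of the 10 genes tested. At an unadjusted p of 0.05, 2 of the 8 passed, beside 9.94% of all genes. DESeq2 called 337 genes and limma 21, also with none of the 8 among them. The number called rests on single litters: it was 2 without litter E_F_G, 7 without H, 1 without L, and 0 without K, O or P_Q in turn. Labels do not say whether the cells of a litter came from 1 or several animals.

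Ier2 came closest. In glabrous sums it ran from 3.94 CPM through a median of 6.74 to 15.8 CPM, and in hairy sums from 7.8 through 14 to 22.3 CPM. The ranges overlapped, and the hairy sum was the higher in 6 of 7 litters, with means of 8.07 ± 3.74 CPM for glabrous and 14.1 ± 5.72 CPM for hairy (SD, n = 7 litters). The log2 change was 0.78 ± 0.34 (SE; edgeR p = 0.0458, adjusted p = 0.493). Jund ran from 46 through 66.2 to 91.7 CPM in glabrous sums and from 41.4 through 83.3 to 147.3 CPM in hairy sums. Its ranges overlapped too; it was higher in hairy sums in 6 of 7 litters, by a log2 change of 0.35 ± 0.16 (SE; edgeR p = 0.0486, adjusted p = 0.501). Both changes missed the threshold by a wide margin.

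The changes of the other AP-1 genes were small beside their errors. Fos ran from 2.49 through 7.72 to 23.3 CPM in glabrous and from 2.79 through 9.12 to 20 CPM in hairy sums, with a log2 change of 0.09 ± 0.58 (SE). It was higher in hairy sums in 5 of 7 litters, but in litter H it was 23.3 CPM in glabrous and 3.43 CPM in hairy sums. Jun ran from 55.9 through 103.6 to 165.7 CPM and from 28.8 through 102.7 to 270.4 CPM (log2 change 0.02 ± 0.36), and Junb from 11.1 through 20 to 34.9 CPM and from 15 through 21.5 to 32.5 CPM (0.21 ± 0.29). The ranges of all 3 genes overlapped almost fully. The edgeR adjusted p was 0.975 for Fos, 0.99 for Jun and 0.858 for Junb.

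Among the remaining genes the litters also disagreed. Egr1 ran from 0.281 through 2.15 to 10.1 CPM in glabrous and from 1.37 through 3.8 to 21.9 CPM in hairy sums, higher in 4 of 7 litters (log2 change 0.81 ± 0.76, edgeR adjusted p = 0.771). Nr4a1 ran from 4.78 through 11.4 to 17.1 CPM and from 1.37 through 12 to 59.6 CPM, higher in hairy sums in 3 of 7 litters (0.09 ± 0.63, edgeR adjusted p = 0.975). Its 2 large hairy sums, 59.6 CPM in litter O and 38.4 CPM in P_Q, stood beside glabrous sums of 4.78 and 15.8 CPM. Arc ran from 0.179 through 4.77 to 13 CPM and from 0 through 3.01 to 10.6 CPM, lower in hairy sums in 5 of 7 litters (-0.61 ± 0.71, edgeR adjusted p = 0.823). The lower share of hairy neurons with Arc was thus not matched by a called difference in the test on litters.

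Atf3 and Fosb had too few counts to be tested. Atf3 ran from 0 through 0.748 to 2.63 CPM in glabrous and from 0 through 3.76 to 8.05 CPM in hairy sums, and was higher in hairy sums in 5 litters, lower in 1 and at 0 in both in 1. The C-fibre-like cluster, where Atf3 was highest, had 15 hairy and 5 glabrous cells. Within it Atf3 had a count in 10 of the hairy and in all 5 glabrous cells, with medians of 4.78 and 3.63 CPM. Fosb had a median of 0 CPM in both groups and reached 0.66 CPM in glabrous and 4.12 CPM in hairy sums.

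**Figure D5:**
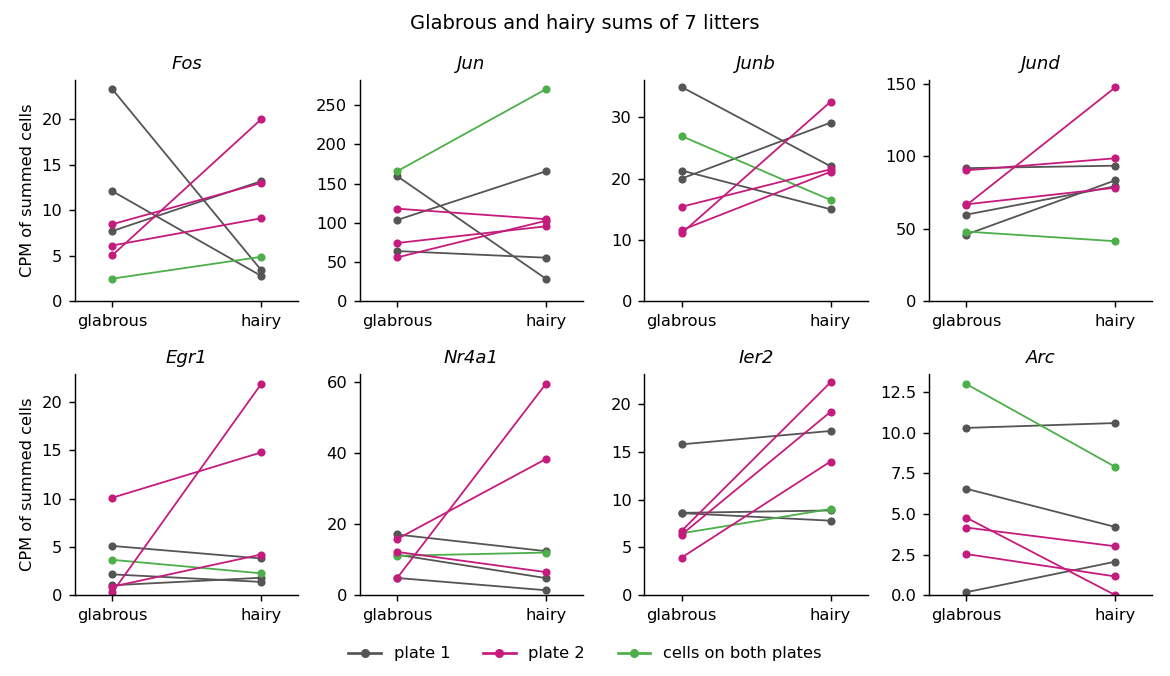
Glabrous and hairy sums of the same litter, joined by a line, for the 8 genes tested in 7 litters, as CPM on linear axes that start at 0. Lines are coloured by plate; those of Ier2 are steep in the 3 litters of plate 2 and nearly flat in the 3 of plate 1, and those of Fos and Nr4a1 cross.

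Among the 7 genes tested, the skin type estimates of Fos, Nr4a1 and Ier2 differed most between the 2 plates, but no difference passed the test. In the 3 litters of plate 1 the log2 change of Ier2 was 0.024, and in the litters of plate 2 it was 1.35 (edgeR p = 0.016, adjusted p = 0.354). In litters L, O and P_Q of plate 2, hairy sums exceeded glabrous ones by 12.8, 15.6 and 10.1 CPM. In C_D, E_F_G and H of plate 1 the differences were -0.79, 0.25 and 1.4 CPM. Litter K differed by 2.54 CPM over its cells of both plates. Its plate 2 cells also entered the plate 2 estimate and the test of the interaction between skin type and plate. The test of this interaction gave a log2 of 1.32 ± 0.55 for Ier2 (SE; edgeR p = 0.0426, adjusted p = 0.846). Fos went from -1.33 on plate 1 to 0.87 on plate 2, with an interaction of 2.19 ± 0.98 (edgeR p = 0.0539, adjusted p = 0.846). Nr4a1 went from -1.04 to 0.99, with 1.99 ± 1.11 (edgeR p = 0.109, adjusted p = 0.846). Egr1 had too few counts for this test. Its hairy sums were the higher by 4.7, 21.6 and 3.33 CPM in L, O and P_Q. They differed by 0.78, -1.3 and -0.78 CPM in C_D, E_F_G and H, and by -1.4 CPM in K over both plates. None of the 7 genes tested passed; edgeR called 0 of 12698 genes (0%), with 4.9% of genes and 1 of the 7 at an unadjusted p of 0.05, and DESeq2 called 5 genes with none of the 7 among them.

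Between plates, the values of Junb and Ier2 in glabrous neurons were lower on plate 2, without passing the test. Junb ran from 20 to 38.8 CPM in 5 litters of plate 1 and from 11.1 to 15.4 CPM in 3 litters of plate 2, with no overlap (log2 change -1.04 ± 0.29, edgeR p = 0.00518, adjusted p = 0.615). Ier2 ran from 8.59 to 15.8 CPM and from 3.94 to 6.74 CPM, with no overlap either (-0.96 ± 0.36, edgeR p = 0.0248, adjusted p = 0.615). Fosb, too sparse to be tested, ran from 0.179 to 0.814 CPM on plate 1 and had no count in the 3 litters of plate 2. Over all genes tested, 2.91% had sums without overlap that were lower on plate 2. edgeR called 0 of 14169 genes (0%), with 8.04% of genes and 2 of the 8 tested here at an unadjusted p of 0.05; DESeq2 called 7, none of them among the 10. In hairy neurons the same plate difference was 0.13 for Junb and 0.85 for Ier2, the opposite direction. In the litters compared between plates, all cells of plate 2 came from cDNA library 5 and none of plate 1 did, so plate and cDNA library cannot be told apart there.

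Between ages, the values of Ier2 and Fos in glabrous neurons were higher at day 5 than at day 4, again short of the threshold. Ier2 was 3.94 and 6.48 CPM in the 2 litters of day 4 and ran from 6.35 to 15.8 CPM in the 7 litters of day 5, with overlapping values (log2 change 0.99 ± 0.41, edgeR p = 0.0375, adjusted p = 1). Fos was 2.49 and 6.13 CPM and ran from 5.06 to 23.3 CPM (1.30 ± 0.64, edgeR p = 0.0669, adjusted p = 1). edgeR called 0 of 15185 genes (0%), with 2.78% of genes and 1 of the 9 tested here at an unadjusted p of 0.05. DESeq2 called 3 genes, none of them among the 10. All litters of day 4 had cells on plate 2, but both ages occurred on both plates. Of all glabrous cells, plate 1 held 4 of day 4 and 81 of day 5, and plate 2 held 10 and 9. Age and plate are thus partly shared.

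In 4 lists of related genes, edgeR called none in the skin type comparison; DESeq2 called 2 and limma 1, all in the injury list. The 8 tested genes of interest had a median log2 change of 0.15, beside -0.02 for all genes. Of 13 other AP-1 genes 7 were tested, with a median of 0.14 and 1 at an unadjusted p of 0.05: Atf2, a CREB/ATF factor, at 0.40 ± 0.13 (SE; edgeR adjusted p = 0.343). The 56 other immediate early genes, listed under 58 names, were all in the table. Of them 43 were tested, with a median of -0.05 and 4 at an unadjusted p of 0.05. They included Dusp6, a phosphatase that switches off ERK, which was higher in the hairy sums of 7 of 7 litters (14.8 ± 5.45 against 30.8 ± 16 CPM, SD, n = 7 litters; log2 change 0.99 ± 0.30, edgeR adjusted p = 0.293). Bdnf, a neurotrophin, was lower in hairy sums in 6 of 7 litters (134.4 ± 37.7 against 83.1 ± 30.3 CPM; log2 change -0.75 ± 0.25, edgeR adjusted p = 0.347).

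The injury list held the lowest p-values. Of 36 axon injury genes 27 were tested, with a median log2 change of 0.01, and 6 had an unadjusted p of 0.05 or less, which is 22.2% beside 9.94% of all genes. Serpinb1a, a protease inhibitor, was lower in hairy sums in 7 of 7 litters (303.3 ± 220.9 against 113.1 ± 98.2 CPM, SD, n = 7 litters). Its log2 change was -1.57 ± 0.38 (SE; edgeR p = 0.00203, adjusted p = 0.198). DESeq2 and limma did call Serpinb1a, and DESeq2 called Cdkn1a as well. Serpinb1a was also among the 10 leading genes of A-fibre-like cluster 1 and of cluster 4, which held 18 glabrous cells each, with 5 hairy cells in cluster 1 and 0 in cluster 4. Cdkn1a, a cell cycle inhibitor, was higher in 6 of 7 litters (117.7 ± 41 against 203.3 ± 67.8 CPM; 0.81 ± 0.20, edgeR adjusted p = 0.206), as was Smad1, a BMP signal transducer (0.52 ± 0.16, edgeR adjusted p = 0.312). All 18 heat shock genes were tested; none had an unadjusted p of 0.05 or less, the median was -0.14, and Bag3, a co-chaperone, came closest at -0.38 ± 0.18 (edgeR p = 0.0629, adjusted p = 0.531).

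Sprr1a and Npy, which adult sensory neurons are known to switch on after nerve injury, had a count in 4 and 6 of 150 cells. They are among the sparsest genes of the injury list. Gal, Csf1, Sox11, Gadd45a, Tnfrsf12a and Flrt3 of that list had a count in most cells. Gap43, a growth cone protein, lacked a count in 1 cell, with a median of 625.3 CPM, and its rho with Jun was 0.441. Over the same cells the inducible immediate early genes Npas4, Egr4 and Nr4a3 had a count in 8, 3 and 10 cells. They too are among the sparsest of their list, where Dusp1, Klf6 and Btg2 had a count in most cells. Egr3, an early response factor, had a count in 65 cells and a rho of 0.602 with Nr4a1 and 0.189 with Fos, and Ccn1, a matrix protein of the early response, a rho of 0.652 with Nr4a1. These genes were picked from the lists after their values were seen.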

How the data were processed

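Smart-seq libraries of 150 single neurons were used. The deposited values are expected counts from Salmon, given as whole numbers for each gene in each cell and without normalization. FastQC, cutadapt, Salmon and the mm10 genome are named in the submitters' processing notes, and the sources used here do not give versions, the counting annotation or strand handling. Each column was matched to 1 cell by its title. The members and lists were chosen with earlier results of these data known.

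CPM are counts per 1000000 of a cell's total. Gene positions and exon lengths come from a GENCODE annotation of mm10. For the replicated comparisons, counts were summed per litter (at least 2 cells per sum) and tested with edgeR 4.0.16 in R 4.3.3: TMM, filterByExpr, quasi-likelihood F-tests, and Benjamini-Hochberg adjustment over all genes tested at 0.05. Skin type had the litter as a block, since litter labels are shared by both skin types. Pairing was checked: after centring within skin type, a litter's hairy and glabrous sums correlated at -0.0254 to 0.281, and for 3 of 7 hairy sums the best match was the glabrous sum of the same litter. The SE is the log2 change divided by the square root of F. The tests were tested on simulated data. DESeq2 1.42.0 and limma 3.58.1 (on the mean of log2(CPM + 1)) were alternatives, as were RLE scaling, no filter, other cell minimums, leaving out cells under 10000 genes or each litter, single plates, and cluster, detected genes or glial markers in the model. Correlations between genes and cluster values are descriptions. Clusters used scanpy 1.11.5 (2000 variable genes, 20 components, 10 neighbours, Leiden resolution 1), without the members and listed genes. A cell's value limits precision to counting error of 1 library. The named genes were the 10 members, the 3 genes most like each (counts in at least 75 cells), and, per list, those called or the 3 with the smallest p; others were named after their values were seen. The 1 cell of both skin types entered no comparison.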

Additional observations from a re-analysis of the deposited data

Results flagged for a closer look

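In 40 groups of 4 to 10 litter sums, 1 for each gene and group, 4 held a litter that stood apart from the others by Dixon's gap. The nominal rate of about 1 in 20 groups holds for independent, normally distributed values. These groups share litter sums, so the number flagged cannot be set against that rate. Ier2 was 15.8 CPM in the glabrous sum of litter H (7 cells), with the next of the 7 litters at 8.62 CPM. Fos was 23.3 CPM in the same sum, with the next of the 7 litters of day 5 at 12.1 CPM. Fosb was 4.12 CPM in the hairy sum of litter H (2 cells, 6 counts), with the next litter at 0.401 CPM and a median of 0 CPM over the hairy sums. Egr1 was 17.5 CPM in the glabrous sum of litter I (31 cells), with the next of the 5 litters of plate 1 at 5.1 CPM; that litter holds the neuron with 254.4 CPM of Egr1.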

How the results depend on the processing

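None of the 10 genes was called in any comparison under any alternative that could be fitted. The number of all genes called for skin type, 12 as reported, was 342 with no filter on low counts, 337 with DESeq2, 21 with limma, 1 and 21 with at least 1 or 3 cells per sum, 0 within plate 1, 0 within plate 2, 7 with cluster in the model and 0 with glial and fibroblast markers in it. Without each litter in turn it was 0 to 15. DESeq2 called 7 genes between plates, 3 between ages and 5 for the interaction of skin type and plate (an alternative chosen after seeing the data, as were detected genes and glial markers in the plate and age models and the removal of other cells' marker ranks). Without each litter in turn, edgeR called 0 to 1 between ages (1 without E_F_G). Without the replicate block, edgeR called 11 genes for skin type and again none of the 10, so the pairing of sums by litter changed no call among them.

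Directions of uncalled estimates turned as follows, on the log2 scale; the cause was not tested. For skin type within plate 1, Fos was -1.33, Jun -0.58, Junb -0.18, Egr1 -0.12, Nr4a1 -1.04 and Arc 0.41. With glial and fibroblast markers in the model, Fos was -0.27, Jun -0.19 and Nr4a1 -0.52. Jun was also -0.0075 with no filter, -0.15 with limma and -0.014 with detected genes in the model, where Nr4a1 was -0.011. Junb was -0.0041 with cluster in the model, and in A-fibre-like cells alone Jund was -0.00077 and Nr4a1 -0.75. Without each litter in turn, Fos ran from -0.27 to 0.49, Jun from -0.15 to 0.35 and Nr4a1 from -0.43 to 0.37; Ier2 stayed between 0.59 and 0.92. Between plates, hairy cells gave 1.16 for Fos, 0.35 for Jun, 0.13 for Junb, 2.58 for Egr1, 0.85 for Ier2 and 2.43 for Nr4a1, and sums of at least 1 cell gave 0.24 for Nr4a1. Leaving out litters gave -0.68 to 0.087 for Jun, -3.32 to 0.42 for Egr1 and -0.52 to 0.17 for Nr4a1. Between ages, plate 2 alone gave -0.60 for Junb and 0.53 for Arc. Atf3 was 0.032 with limma, 0.021 without cells under 10000 genes, 1.16 with at least 1 cell and 0.59 in hairy cells, and Nr4a1 was 0.092 with at least 1 cell. Leaving out litters gave -0.75 to 0.49 for Jun, -0.21 to 1.09 for Junb, -1.08 to 6.49 for Atf3, -0.98 to 0.73 for Arc and -0.30 to 0.12 for Nr4a1; for the interaction Jund ran from -0.39 to 0.026.

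The median rho of Fos, Egr1, Ier2 and Nr4a1, 0.366, was 0.388 as Pearson's r, 0.33 after thinning, 0.376 without cells of few genes, 0.275 with satellite glia ranks removed, 0.272 with fibroblast ranks, 0.32 with Schwann cell ranks and 0.247 with all 3. Thinning lowered the share of cells with a Fos count from 74.5% to 63.8%. At 1.36 CPM per count in the median cell, single-cell values of Fosb, Atf3 and Egr1 near 0 are limited by depth.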

Other observations

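The 1 neuron labelled with both skin types lay in cluster 4. It had 165.4 CPM of Jun, 32.6 of Junb, 27.6 of Jund, 23.8 of Arc, 6.27 of Ier2, 5.01 of Fos and 5.01 of Nr4a1, and no count of Fosb, Egr1 or Atf3. Its Arc level was in the top 10% of all cells.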
